A study of Homo sapiens with 6 samples.

Results

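Ribosome biogenesis and nucleolar genes were followed as a list of 41 genes, chosen by name and function with earlier results of these data known. Of these, 36 were measured among 11100 measured genes of the series. A gene counted as measured when a probe annotated to it exceeded a log2 intensity of 6.70, the background threshold, in at least 3 of the 6 arrays. Where several probes passed, the probe of the highest mean stood for the gene. All 36 exceeded the threshold in all 6 arrays, so none entered through 1 treatment alone. Of the 5 others, POLR1A, the largest subunit of RNA polymerase I, exceeded it in 2 arrays and NPM1, which encodes nucleophosmin, in 1. WDR43, EBNA1BP2 and GNL3 had no annotated probe among those used here.

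The cells were OCI-LY10, an established human line of diffuse large B-cell lymphoma. One group received pimasertib, a small-molecule inhibitor of MEK, the kinase directly upstream of ERK. The other received DMSO, the solvent. Each group had 3 arrays, taken at 4, 8 and 12 h, with no second array for any treatment and time, and the labels give no dose. Nothing says that the arrays came from separate cultures. A p-value of the treatment difference measures how that difference varied between times. Change over time and array noise, possibly technical, cannot be told apart in it.

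Ribosomes are built in the nucleolus. RNA polymerase I transcribes the long precursor of the ribosomal RNAs, small nucleolar RNPs (snoRNPs) guide its methylation and pseudouridylation, and assembly factors cut, fold and export the small and large subunits. The transcription factor MYC is a known activator of many of these genes, and ERK signalling is known to act on MYC and on the polymerase I machinery, which makes the pathway one of the usual growth outputs of the RAS-MAPK cascade.

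EGR1, an immediate early gene induced by ERK, stood at 8.32, 8.77 and 8.85 in DMSO at 4, 8 and 12 h and at 6.87, 6.74 and 6.62 with pimasertib. Its groups lay far apart, at -1.90 ± 0.20 (SE, 3 arrays a group), with an adjusted p of 0.273 in limma. MYC did not separate the groups, with 10.49, 10.996 and 10.82 in DMSO and 10.61, 11.02 and 10.59 with pimasertib. Among B cell markers CD79A and CD79B were far above background (11.64 and 11.39 in DMSO), while PAX5 and VPREB3 were not measured. Of the 7 T cell, 6 myeloid, 5 fibroblast and 5 epithelial markers, 1, 2, 1 and 3 were measured, and CD3D, CD3E, LYZ, COL1A1 and KRT18 were not. The DMSO array of 8 h stood apart. Its mean correlation with the other arrays was 0.914 over all genes, against 0.944 to 0.969 for the other 5, and 0.807 over the 36 members, against 0.913 to 0.946. Where leaving out the 8 h pair moves a member's mean difference by over 1.5 times or turns its sign, that value is given too.

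Most members lay close to the controls, and of the 7 whose groups did not overlap 6 were lower with pimasertib. In 6 genes all 3 pimasertib arrays lay below all 3 DMSO arrays: POLR1E and UBTF of the RNA polymerase I machinery, NOP14 and BYSL of the small subunit, PPAN of the large subunit, and SRM, which makes the polyamine spermidine. Only WDR36, a small subunit factor, lay wholly above. That is 16.7% of the members below and 2.78% above, against 8.22% and 8.4% of all genes. Of the 8124 genes above background in all 6 arrays, as the members were, 9.7% lay below and 7.05% above. At an unadjusted p under 0.05 in limma, 4 members were lower (POLR1E, NOP14, PPAN, SRM) and 1 higher (WDR36), where all genes gave 3.57% and 3.96%. None of the 36 passed an adjusted p of 0.05, nor did any of the 11100 genes (0%), so none of the differences below is a call. The smallest adjusted p among members was 0.647 in limma. An exact test of 3 arrays against 3 cannot give a p below 0.1. In bulk RNA, fewer cells of a type and less RNA per cell cannot be told apart. The B cell markers, as the mean log2 intensity per array of the 9 of 10 with a probe, also ran lower with pimasertib, from 8.69 to 8.83 against 8.89 to 8.93 in DMSO. Of the 7 measured, POU2AF1 (-0.61) and BLK (-0.32) were lowest, while CD79A and CD79B were at 0.06 and 0.11. Their part in these differences was not tested.

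Which members had an unadjusted p under 0.05 depended on the times included. Without the 12 h pair, 0 members were lower and 4 higher (DKC1, WDR36, NOP53 and NCL), against 2.07% and 6.38% of all genes. Without the 8 h pair, 4 were lower (NOP14, PPAN, RRP1 and SRM) and WDR36 was higher, against 2.91% and 3.34%. Without the 4 h pair 3 were lower (POLR1E, PPAN and DHX33) and WDR36 was higher, against 2.48% and 4.11%. WDR36 was the member found in each of these fits. Over 4 and 12 h alone, 13 members lay wholly below the controls and 2 wholly above, against 18.9% and 17.9% of all genes with 2 arrays a group.

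**Figure D1:**
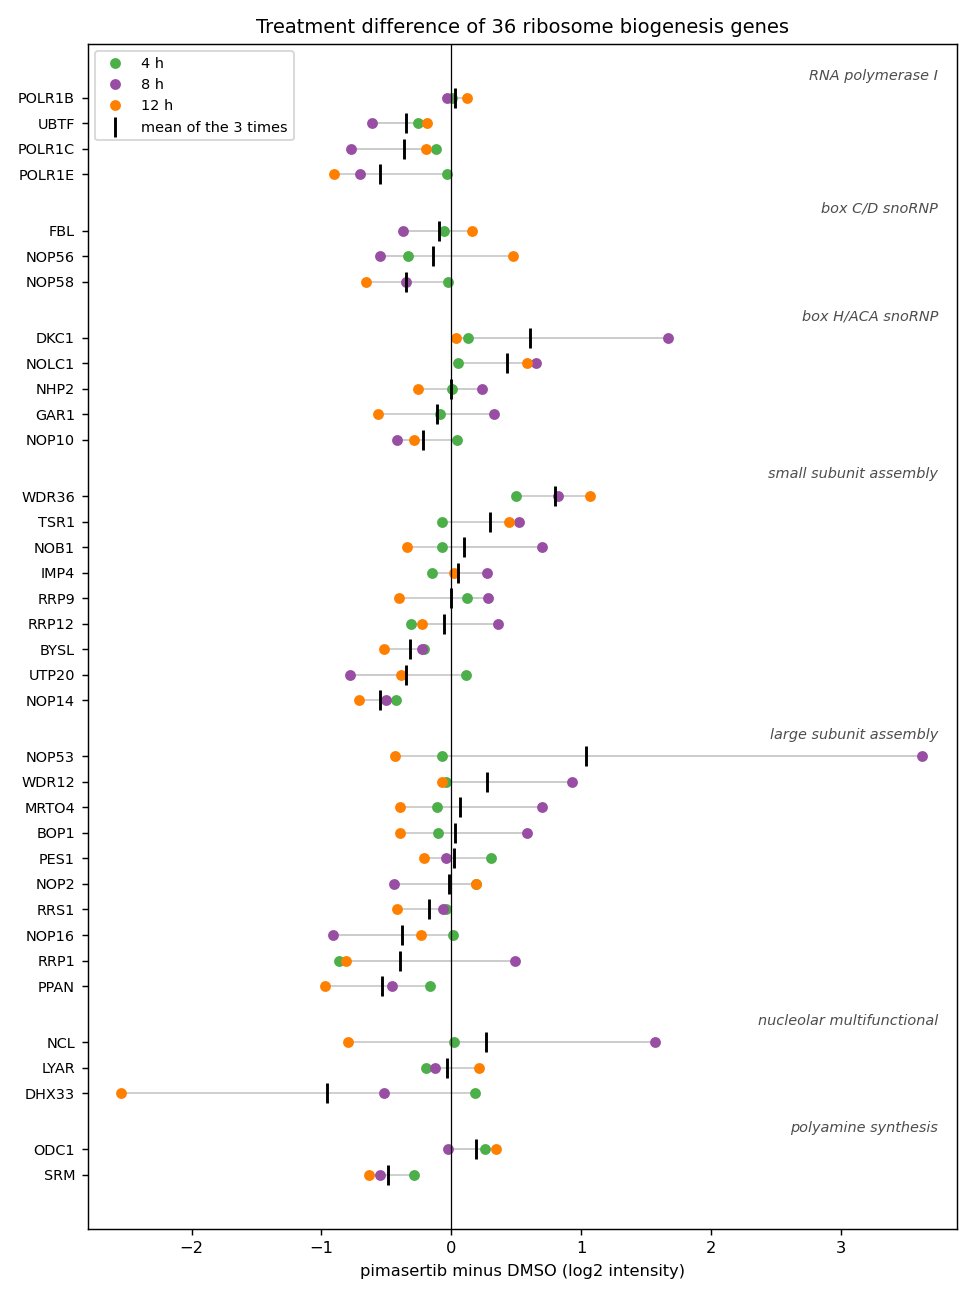
Difference between pimasertib and DMSO in log2 intensity for each of 36 measured genes, ordered by role, with 1 point per time (1 array per treatment and time) and a bar at the mean of the 3 times. Most points lie within 1 log2 unit of 0, the points at 8 h spread widest with NOP53 at 3.62, and DHX33 at 12 h lies at -2.55.

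SRM encodes spermidine synthase, and its level in DMSO was 10.26, 10.54 and 10.44 at 4, 8 and 12 h. With pimasertib it was 9.97, 9.997 and 9.81. The groups did not overlap and SRM was lower at each time, by -0.29, -0.55 and -0.63. The mean difference was -0.49 ± 0.17 (SE, 3 arrays a group), or 1.4-fold lower, with an adjusted p of 0.647 in limma. It ran from -0.59 to -0.37 over all alternatives.

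NOP14, a component of the small subunit processome, stood at 8.75, 8.80 and 8.51 in DMSO and at 8.33, 8.30 and 7.80 with pimasertib. Every pimasertib array was below every DMSO array. The difference was -0.55 ± 0.17 (SE), or 1.46-fold lower, with an adjusted p of 0.647 in limma. A second NOP14 probe was lower at 8 and 12 h, with -0.42 and -0.69, but at 0.08 at 4 h.

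PPAN encodes the homologue of the yeast large subunit factor Ssf1, and its readings in DMSO were 8.33, 8.56 and 8.68. In pimasertib they were 8.17, 8.11 and 7.70. The 12 h arrays were farthest apart, with differences of -0.16, -0.46 and -0.97 in order of time. The mean of -0.53 ± 0.21 (SE) corresponds to 1.45-fold lower (adjusted p = 0.647, limma), and was -0.31 without the 12 h pair.

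BYSL, or bystin, acts in the last steps of small subunit maturation and had levels of 9.58, 9.57 and 9.76 in DMSO. The pimasertib arrays gave 9.37, 9.35 and 9.24. The groups were separate, though the mean difference was small, at -0.32 ± 0.17 (SE; adjusted p = 0.669, limma).

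WDR36, a WD-repeat protein of the small subunit processome, went the other way. It stood at 8.32, 8.14 and 7.77 in DMSO and at 8.82, 8.96 and 8.84 with pimasertib. The pimasertib arrays were near each other and the DMSO arrays farther apart, with differences of 0.50, 0.82 and 1.07 at 4, 8 and 12 h. At 0.80 ± 0.18 (SE), or 1.74-fold higher, WDR36 ranked first among the members by p and 16 among 11100 genes, with an adjusted p of 0.647 in limma. A single probe each measured WDR36, SRM, PPAN and BYSL, so no second probe checks their values.

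**Figure D2:**
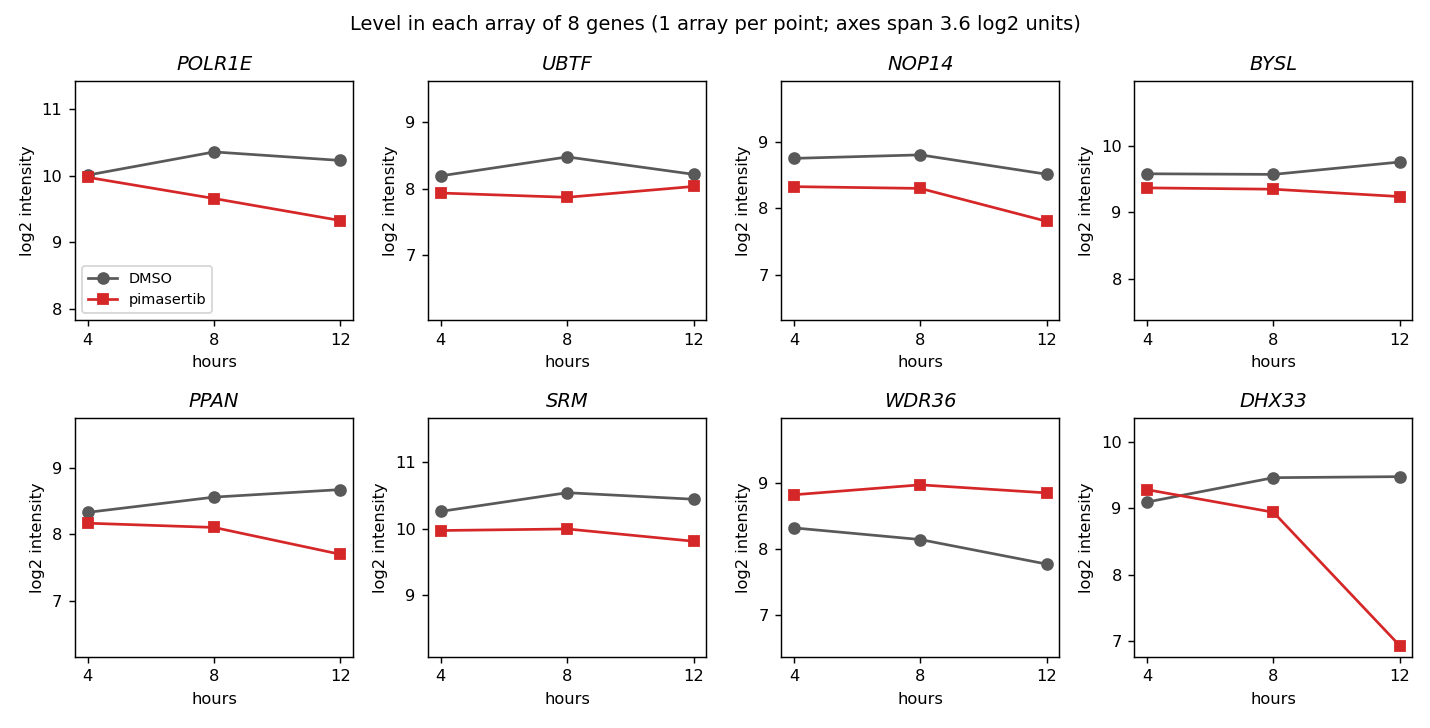
Log2 intensity in each array against hours for 7 genes whose groups do not overlap and for DHX33 (grey circles, DMSO; red squares, pimasertib). The pimasertib points of POLR1E, UBTF, NOP14, BYSL, PPAN and SRM lie below the DMSO points, those of WDR36 above, and DHX33 is at 6.93 at 12 h with pimasertib.

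The promoters of 4 of these genes are shown, those among the 7 that separated the groups whose window held a motif of the MYC or ETS family. Each is the RefSeq window of 250 bases before to 50 after the start taken for the gene (GRCh38.p14), 5′ to 3′ on the strand given. That start need not be the outermost one annotated, and is not for BYSL, PES1, UBTF and NPM1. Capitals mark CACGTG, the E-box bound by MYC and MAX, or CCGGAAG, a core motif of ETS factors, on either strand, and no E-box overlapped an ETS core in these 4 windows. NOP14 lies on chromosome 4, minus strand, chr4:2963357-2963656, and its E-box starts at base 16 of the transcribed part.
NOP14: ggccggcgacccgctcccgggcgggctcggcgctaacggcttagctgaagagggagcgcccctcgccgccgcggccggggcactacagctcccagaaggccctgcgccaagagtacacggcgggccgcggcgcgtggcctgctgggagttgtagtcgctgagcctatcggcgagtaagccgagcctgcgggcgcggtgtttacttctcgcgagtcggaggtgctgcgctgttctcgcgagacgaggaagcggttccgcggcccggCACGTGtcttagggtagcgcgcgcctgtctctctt
BYSL lies on chromosome 6, plus strand, chr6:41921249-41921548, with an E-box from base 29.
BYSL: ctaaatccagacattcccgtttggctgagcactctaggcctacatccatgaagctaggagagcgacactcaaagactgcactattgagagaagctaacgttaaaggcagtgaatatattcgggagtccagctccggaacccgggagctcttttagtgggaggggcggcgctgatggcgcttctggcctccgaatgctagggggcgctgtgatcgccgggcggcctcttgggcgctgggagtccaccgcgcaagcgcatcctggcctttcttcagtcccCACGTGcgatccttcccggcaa
SRM lies on chromosome 1, minus strand, chr1:11059969-11060268, with an E-box farther upstream, from base -199.
SRM: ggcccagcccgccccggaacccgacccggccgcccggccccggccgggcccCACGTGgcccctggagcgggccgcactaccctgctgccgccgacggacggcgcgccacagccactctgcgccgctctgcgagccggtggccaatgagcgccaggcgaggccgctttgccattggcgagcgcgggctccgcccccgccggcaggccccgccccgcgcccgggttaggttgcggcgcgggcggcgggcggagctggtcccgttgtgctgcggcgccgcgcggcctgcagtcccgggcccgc
WDR36 lies on chromosome 5, plus strand, chr5:111092098-111092397, and holds an ETS core from base -11 and no E-box.
WDR36: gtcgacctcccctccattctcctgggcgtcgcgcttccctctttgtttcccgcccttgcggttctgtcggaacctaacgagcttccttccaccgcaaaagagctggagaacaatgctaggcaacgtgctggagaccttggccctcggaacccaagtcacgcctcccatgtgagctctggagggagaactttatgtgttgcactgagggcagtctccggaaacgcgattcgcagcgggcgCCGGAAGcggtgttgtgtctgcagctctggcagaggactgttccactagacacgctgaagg

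E-boxes were common in the members' promoters. A window was found for 29 of the 36 measured members, and 11 of them (37.9%) held CACGTG, against 10.6% of 8876 measured genes and 7.43% of all 27305 promoters. The ETS core was in 9 (31%), against 19.7% of measured genes and 10.7% of all promoters. The median GC content of these windows was 65% for members and 64.7% for measured genes. In 10 of the 11 E-box promoters (90.9%) a match lay within the last 100 bases of the window, close to the gene start, against 41.9% of the 938 measured genes with an E-box. Neither trait was shared by the members alone: of 110 other pathway genes measured, 22.7% held an E-box and 41.8% an ETS core, and 20 of their 25 E-box promoters (80%) had it in that stretch. These matches are letters in a window and say nothing of binding.

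Some of these E-boxes are printed with 12 bases on either side, namely the nearest to the gene start in 7 genes whose promoter is not shown above, to show how the flanks vary. NOP10 and IMP4 each hold a second one farther off, at -170 and -203. The motif's first base is at 7 for FBL, -11 for NOP10, -5 for RRP9, -10 for UTP20, 16 for IMP4, 14 for PES1 and 15 for MRTO4, counted from the gene start.
FBL, chr19:39846356-39846385, minus strand: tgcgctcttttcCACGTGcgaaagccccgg
NOP10, chr15:34343130-34343159, minus strand: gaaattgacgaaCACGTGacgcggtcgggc
RRP9, chr3:51941892-51941921, minus strand: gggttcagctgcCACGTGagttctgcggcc
UTP20, chr12:101280083-101280112, plus strand: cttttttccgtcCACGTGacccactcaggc
IMP4, chr2:130342900-130342929, plus strand: ttctcccggaccCACGTGgaagcggcactc
PES1, chr22:30591880-30591909, minus strand: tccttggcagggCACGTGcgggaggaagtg
MRTO4, chr1:19251807-19251836, plus strand: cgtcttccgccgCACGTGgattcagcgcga
The 11 measured members with an E-box had a median difference of -0.09, from -0.55 to 0.07, with 8 lower. The 18 with a window and no E-box had a median of 0.01, from -0.53 to 1.04, with 9 lower. Without the 8 h pair, an alternative chosen after seeing the data, the medians were -0.14 with an E-box and -0.12 without one. WDR36 and NOP53 are both among the latter. The windows of PPAN and UBTF held neither motif, and no window was found for POLR1E. The 2 ETS cores of NOP16 overlap on opposite strands.

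**Figure D3:**
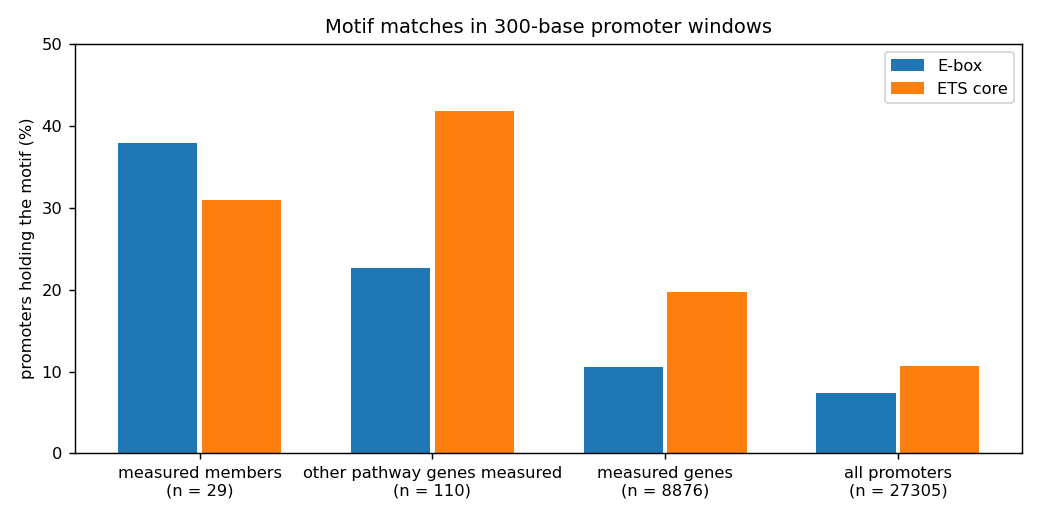
Share of 300-base promoter windows that hold an E-box (blue) or an ETS core motif (orange) in 4 sets of genes. The E-box bar is highest in the measured members, at 37.9%, and the ETS bar in the other pathway genes measured, at 41.8%.

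As a group the members differed little from all genes on average. Their median difference was -0.04 log2 units, against 0.02 for all genes, but it turned to 0.02 under cyclic loess normalization, where all genes were at 0.03. The 8124 genes above background in all 6 arrays had a median of -0.01. By time the medians were -0.05, -0.04 and -0.27 at 4, 8 and 12 h, against 0.01, 0.02 and -0.01 for all genes. The 12 h pair was thus where the members lay lowest. There 25 of 36 members (69.4%) were lower, against 51.4% of all genes, and at 4 h 22 (61.1%) were lower, against 47.6%. At 8 h the share was 55.6% against 48.6%, but the spread was widest, with an SD over members of 0.87 against 0.23 at 4 h and 0.60 at 12 h. Without the 8 h pair the members' median was -0.15, and that of all genes was 0.001. Of the 36, 9 were lower (25%) and 3 higher (8.33%) at all 3 times, against 15.7% and 17.4% of all genes.

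**Figure D4:**
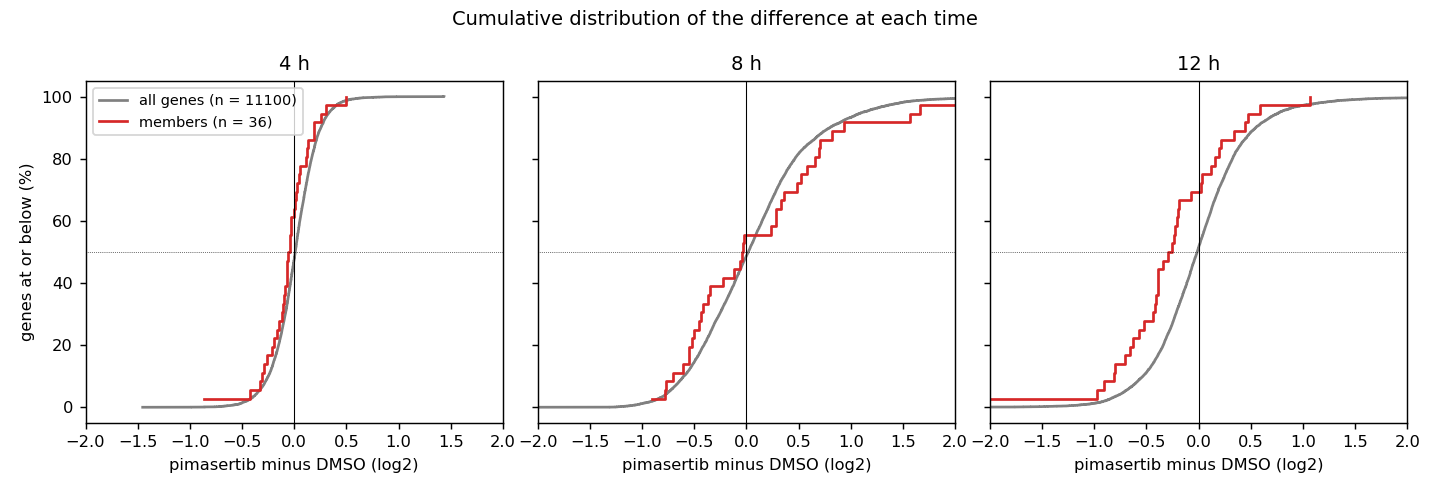
Cumulative share of genes against the difference between pimasertib and DMSO at 4, 8 and 12 h, for 36 members (red) and 11100 genes (grey), with 1 array per treatment and time and the axis limited to 2 log2 units. At 12 h the red line lies to the left of the grey one over most of its course, with a median of -0.27, and at 8 h it is broader on both sides.

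Among RNA polymerase I genes 4 of 5 were measured, with a median difference of -0.36, and -0.19 without the 8 h pair. POLR1E, the PAF53 subunit of the polymerase, stood at 10.01, 10.36 and 10.23 in DMSO and at 9.98, 9.66 and 9.33 with pimasertib. At 4 h the treatments lay side by side and at 12 h they were 0.90 apart, for a mean of -0.55 ± 0.21 (SE; adjusted p = 0.647, limma). A second POLR1E probe gave a mean of 0.17, so the direction depends on the probe. UBTF encodes UBF, the factor that opens and marks active ribosomal DNA, and its levels were 8.19, 8.48 and 8.21 in DMSO.

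In pimasertib UBTF was at 7.93, 7.87 and 8.03, a difference of -0.35 ± 0.18 (SE; adjusted p = 0.651, limma). Leaving out the 8 h pair gave -0.22, and its other probes gave -0.23 and 0.06. POLR1C, a subunit shared with RNA polymerase III, was at 10.28, 10.80 and 10.15 in DMSO and 10.16, 10.03 and 9.95 with pimasertib. It was lower at each time, mostly at 8 h, and both of its probes were lower, at -0.36 and -0.46. POLR1C was at -0.16 without the 8 h pair. POLR1B, the second largest subunit, was level, with 7.83, 8.02 and 7.88 in DMSO against 7.83, 7.98 and 7.99, a difference of 0.03 ± 0.16 (SE), and 0.06 without the 8 h pair.

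The box C/D snoRNP proteins, which carry out ribose methylation, had a median difference of -0.14, and 0.05 without the 8 h pair. NOP56, a core scaffold protein, was at 12.69, 12.75 and 11.72 in DMSO and at 12.36, 12.20 and 12.19 with pimasertib. Its difference was below 0 at 4 and 8 h and above 0 at 12 h, where the control was low, and its 3 probes gave -0.14, -0.56 and 0.10. Fibrillarin, the methyltransferase encoded by FBL, was at 11.25, 11.54 and 11.15 against 11.19, 11.17 and 11.31, a difference of -0.09 ± 0.18 (SE). Without the 8 h pair the mean differences of NOP56 and FBL were 0.07 and 0.05. NOP58, the partner of NOP56, was lower at each time, by -0.03, -0.35 and -0.66.

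Box H/ACA snoRNP genes, whose enzyme makes pseudouridine, did not share a direction. DKC1, the pseudouridine synthase dyskerin, stood at 11.45, 9.68 and 11.63 in DMSO and at 11.58, 11.35 and 11.66 with pimasertib. The low DMSO array of 8 h went with a mean difference of 0.61 ± 0.33 (SE), which was 0.08 without the 8 h pair. NOLC1, or Nopp140, which escorts snoRNPs in the nucleolus, was at 9.47, 8.61 and 9.01 in DMSO against 9.52, 9.27 and 9.59. Higher at each time, it averaged 0.43 ± 0.19 (SE; adjusted p = 0.647, limma) and 0.32 without the 8 h pair.

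The small core proteins of this particle lay nearer to 0. NOP10 was at 11.65, 12.06 and 11.78 in DMSO and at 11.70, 11.64 and 11.50 with pimasertib, and its probes gave -0.22 and -0.18, the first at -0.12 without the 8 h pair. NHP2 was at -0.003 by its brightest probe, or -0.12 without the 8 h pair, and its 3 other probes gave -0.56 to -0.25. The one at -0.56, singled out after its values were seen, read 10.30, 10.29 and 10.15 in DMSO and 9.74, 9.68 and 9.65 with pimasertib, with no overlap. GAR1 was at -0.11, or -0.33 without the 8 h pair, and its other probes ran from -0.41 to 0.42.

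Besides NOP14, BYSL and WDR36, the small subunit genes overlapped between treatments. UTP20, a large scaffold protein of the processome, was at 7.29, 8.08 and 7.39 in DMSO and 7.41, 7.30 and 7.003 with pimasertib, a difference of -0.35 that was -0.14 without the 8 h pair. A second UTP20 probe, above background in 3 arrays, gave 0.06. IMP4, which pairs the U3 snoRNA with the precursor, was at 11.14, 10.77 and 10.92 against 10.99, 11.05 and 10.94, at 0.05 over all times and -0.06 without the 8 h pair. The 2 genes had their 8 h controls on opposite sides. RRP9, a U3 protein, RRP12, whose yeast homologue is an export factor, and NOB1, the nuclease that makes the 18S end, had means of -0.002, -0.06 and 0.10. All 3 were lower without the 8 h pair, at -0.14, -0.27 and -0.20. TSR1, a late assembly factor, was at 0.30 ± 0.19 (SE), and at 0.19 without that pair, and its second probe gave 0.06. Of these 6 genes, none kept 1 sign at all 3 times.

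Large subunit genes had a median difference of 0.00, or -0.24 without the 8 h pair, with medians of -0.05, 0.22 and -0.39 at 4, 8 and 12 h. At 12 h 9 of 10 were lower. NOP53, whose yeast homologue recruits the exosome to the large subunit precursor, stood at 12.31, 8.63 and 12.34 in DMSO and at 12.24, 12.25 and 11.91 with pimasertib. A single array, DMSO at 8 h, was thus low, and the mean of 1.04 ± 0.71 (SE; adjusted p = 0.706, limma) became -0.25 without that pair. Without the 12 h pair NOP53 passed the test (adjusted p = 2.42e-06, limma) in a fit that left 1 residual degree of freedom and passed 0.91% of all genes.

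RRP1, a nucleolar factor of large subunit processing, was at 8.91, 7.48 and 8.63 in DMSO and at 8.05, 7.97 and 7.83 with pimasertib. It was lower by -0.87 at 4 h and -0.81 at 12 h, the lowest difference of any member at 4 h, and higher by 0.49 at 8 h, again with a low control. Its mean was -0.40 ± 0.29 (SE) and -0.84 without the 8 h pair. The PeBoW complex of PES1, BOP1 and WDR12 gave 0.02, 0.03 and 0.28, but 0.05, -0.25 and -0.05 without the 8 h pair. NOP16 was at -0.38, RRS1, which loads the 5S RNP, at -0.17, MRTO4 at 0.07 and NOP2, the 28S methyltransferase, at -0.02. With that pair left out NOP16 was at -0.11, RRS1 at -0.23, MRTO4 at -0.25 and NOP2 at 0.19. These 7 had adjusted p-values from 0.683 to 0.984 in limma. A second WDR12 probe gave 0.75, with -0.04, 0.95 and 1.35 at 4, 8 and 12 h. The other probes of NOP2 ran from 0.09 to 0.52, and that of NOP16 gave -0.18.

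Of the nucleolar proteins with several functions, nucleolin (NCL), an abundant RNA-binding protein of the nucleolus, was at 11.68, 10.08 and 11.91 in DMSO and at 11.71, 11.65 and 11.12 with pimasertib. Its difference of 0.27 became -0.39 without the 8 h pair, and its second probe was at -0.14. DHX33, a helicase of ribosomal DNA transcription and translation, was at 9.09, 9.46 and 9.47 in DMSO and at 9.28, 8.94 and 6.93 with pimasertib. The 12 h pimasertib array alone was low, close to the background threshold, and the mean of -0.96 ± 0.47 (SE; adjusted p = 0.651, limma) was -0.17 without that pair. LYAR was at -0.03 by its brightest probe, or 0.01 without the 8 h pair, and at 0.58 by the other.

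The other polyamine gene, ODC1, encodes ornithine decarboxylase, the step that makes putrescine. Its levels were 11.70, 11.96 and 12.26 in DMSO and 11.96, 11.94 and 12.61 with pimasertib, a difference of 0.19 ± 0.17 (SE), and 0.30 without the 8 h pair. SRM and ODC1 therefore lay on opposite sides of 0. The difference between the 2 genes was not tested.

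At single times, where 1 array stands against 1, few members were at least 2-fold apart. At 4 h no member was, where 0.036% of all genes were lower and 0.036% higher. At 8 h 3 members (8.33%), DKC1, NOP53 and NCL, were at least 2-fold higher, against 6.74% of all genes, and none was lower, against 1.23%. At 12 h DHX33 was lower and WDR36 higher, 2.78% each, against 1.28% and 2.81%. The share of members at 8 h was near that of all genes.

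Much of the 8 h difference lay in the DMSO array and not in the pimasertib array. Between DMSO arrays of 8 and 4 h, DKC1, NOP53, RRP1 and NCL were at least 2-fold lower (11.1%, against 6.34% of all genes) and no member was 2-fold higher (against 0.874%). Between the pimasertib arrays of 8 and 4 h no member was 2-fold apart, against 0% of all genes lower and 0.018% higher. Between 12 and 4 h of pimasertib only DHX33 was lower (2.78%, against 0.64%), and none was higher (against 0.108%). Of the 36 members, 14 had their lowest and 13 their highest value in the DMSO array of 8 h. The arrays of 12 h also held many extremes. In DMSO 12 members were highest and 5 lowest there, and with pimasertib 12 were lowest and 4 highest. Such extremes were not counted over all genes. Set against the mean of the DMSO arrays of 4 and 12 h, the pimasertib array of 8 h gave a median over members of -0.14, with 28 of 36 lower. All genes were at 0.01, with 5389 of 11100 lower, and 127 other pathway genes at -0.04, with 70 lower.

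In the DMSO array of 8 h, though not in it alone, probes of the same gene also parted. Of 16 members with several probes above background, 5 (LYAR, NCL, NOP2, POLR1B and POLR1E) had probes whose change from 4 to 8 h in DMSO differed by at least 1 log2 unit, or 31.2%, against 24.9% of 2858 such genes. For NCL the probes were at -1.60 and 0.06, and for LYAR at -0.11 and -1.43. NOP2 had 4 probes, at 0.58, -1.10, -0.14 and 0.82. In pimasertib the median range between probes was 0.10 for the members and 0.12 for all genes, and 0 genes reached 1, against median ranges of 0.70 and 0.58 in DMSO. Over the treatment difference, the probes of 8 of the 16 members agreed in sign and those of 8 did not. Probes of some members also parted in the DMSO array of 12 h. From 4 to 12 h in DMSO the NOP2 probes changed by -0.41, 0.26, -1.88 and 0.64, and the WDR12 probes by 0.60 and -1.73. The ranges between probes were not counted for 12 h. What sets the DMSO array of 8 h apart was not tested.

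**Figure D5:**
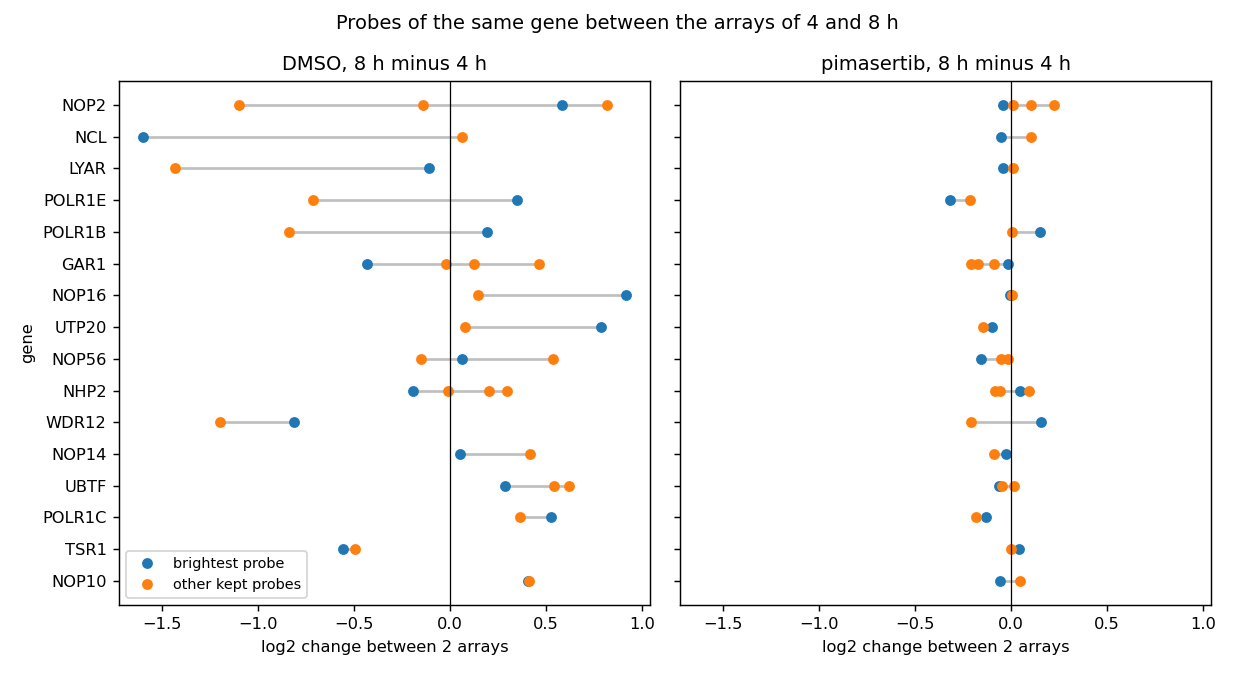
Log2 change from 4 to 8 h of each probe above background, for 16 genes with several such probes, in DMSO (left) and pimasertib (right), with 1 array per time. Probes of 1 gene lie up to 1.92 apart in DMSO, for NOP2, and at most 0.37 apart in pimasertib.

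The difference between treatments was also tested for a trend over the hours. No member passed an adjusted p of 0.05, nor did any gene (0%). At an unadjusted p under 0.05, DHX33 alone trended downward, at -0.34 ± 0.09 (SE) log2 units per hour (2.78%, against 0.604% of genes), and no member upward (against 1.01%). Without the DMSO array of 8 h, a fit of 5 arrays, POLR1E, NCL and DHX33 passed, where 7.95% of all genes did.

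Other genes of the pathway were taken from 7 lists, of which 127 of 133 genes were measured. None passed the adjusted test. Of the 127, 15 (11.8%) lay wholly below the controls and 9 (7.09%) wholly above, against 8.22% and 8.4% of all genes, and their median difference was -0.002. At an unadjusted p under 0.05 in limma, 9 (7.09%) were lower and 4 (3.15%) higher, against 3.57% and 3.96%.

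Of 31 small subunit processome genes, 5 (16.1%) lay wholly below and 1 (3.23%) wholly above, though 18 were higher on average and the median was 0.03. The genes named from each list are those of smallest p. MPHOSPH10, a U3 protein that binds IMP4, averaged 10.89 in DMSO and 10.23 with pimasertib, or -0.67 ± 0.18 (SE). NOC4L was at -0.72 and WDR46 at -0.65, both lower at all 3 times. Among 20 exosome and RNase MRP genes 5 (25%) lay wholly below and 1 (5%) above, with POP7 at -0.57, POP4 at -0.53 and EXOSC5 at -0.46, the last at -0.29 without the 8 h pair. Of 10 other polymerase I genes 0 lay below and 1 above: TAF1C, of the promoter factor SL1, was at -0.42, the initiation factor RRN3 at 0.38, and POLR1D at 0.88. RRN3 was at 0.23 and POLR1D at 0.03 without the 8 h pair.

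Large subunit genes of the wider list numbered 34, with 2 wholly below and none above. EIF6, which keeps the subunits apart, was lower at each time and averaged -0.58, while ZNF622 at 0.89 and MAK16 at 0.67 were at 0.16 and 0.08 without the 8 h pair. Of 13 nucleolar helicases 1 lay below and 2 above, with DDX54 at 0.75, DDX49 at -0.53 and DDX51 at -0.36, and DDX54 was at 0.31 without the 8 h pair. Among 10 snoRNP assembly factors 1 lay below and 2 above, with SHQ1, the dyskerin chaperone, at 0.50, PIH1D1 at -0.38 and ZNHIT6 at 0.59. SHQ1 was at 0.23 and ZNHIT6 at 0.15 without the 8 h pair.

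Of 9 polyamine genes beyond SRM and ODC1, 6 were higher on average, with a median of 0.33. At 4 h 6 of the 9 were lower, with a median of -0.01, and without the 8 h pair the median was 0.17. AMD1, which supplies the aminopropyl donor that SRM uses, averaged 8.45 in DMSO and 9.05 with pimasertib. Its groups did not overlap, at 0.60 ± 0.17 (SE; adjusted p = 0.647, limma). The antizyme inhibitor AZIN1, which protects ornithine decarboxylase, was at 0.58 without overlap, and at 0.34 without the 8 h pair. The antizyme OAZ1 was at 1.59, with differences of -0.04, 1.10 and 3.71 by time. Its pimasertib arrays were level, at 13.05, 13.14 and 13.15, while DMSO read 13.10, 12.04 and 9.45. The differences of OAZ1 thus lay in low controls at 8 and 12 h. Finally, the probe of RNA18SN5, an 18S ribosomal RNA gene, read 9.87, 9.15 and 11.44 in DMSO and 11.29, 11.12 and 10.05 with pimasertib. It was higher at 4 and 8 h and lower at 12 h, and its mean of 0.67 ± 0.58 (SE) was 0.02 without the 8 h pair.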

How the data were processed

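RNA of OCI-LY10 cells was measured on Illumina bead arrays, 3 per treatment. The deposited values are log2 intensities of 47231 probes, which the authors had quantile-normalized, since the sorted columns differ by at most 9e-04. For software and background correction, the sources used here give nothing. Base 2 was inferred from the range, 6.2 to 13.91. The number of arrays limits the precision. A table of signals before normalization was not used, as its 6 columns match no label. Probes above 6.70 in at least 3 arrays were kept (19894). That threshold is the most frequent value, 6.49, plus 3 SDs (0.07) of the values below it.

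Differences were fitted over all 11100 genes in limma 3.58.1 (R 4.3.3), with time as a 3-level block that pairs the arrays, two-sided, with Benjamini-Hochberg adjustment. The 2 residual degrees of freedom measure how the difference varies between times, not replicate noise. Trends used treatment, hours and their product. The fits were tested on simulated data.

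Members and lists were chosen with earlier results of these data known. Values by array are given for members of the 10 smallest p, without overlap, at least 1.5-fold apart at 2 times, or at either end of a role by level. Levels of different probes are not comparable. Up to 3 genes per other list, by p, and EGR1, MYC and RNA18SN5 are named. PTPN6, DUSP6 and MAX, also on that rule, had mean differences of -1.94, 0.12 and 0.15. DUSP6 lay near the background threshold, from 6.76 to 7.16 over the 6 arrays, which limits what its difference can show. Promoters come from RefSeq (GRCh38.p14). Planned protein features were not computed. Alternatives are in the closing section.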

Additional observations from a re-analysis of the deposited data

How the results depend on the processing

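The treatment difference was fitted under 13 alternatives, and the trend and non-overlap under fewer. Members past an adjusted p of 0.05 in limma numbered 0 in the fit reported and in each alternative except without the 12 h pair, so over the 3 fits that leave out a time they ran from 0 to 1 (NOP53). Without the 12 h pair 0.91% of all genes passed. Members lower at an unadjusted p under 0.05 numbered 4, and the share of all genes, given here in brackets, was 3.57%. There were 2 under cyclic loess (2.58%) and 6 without the replicate block of time, which is the pairing used here (3.76%). With no filter on dim probes there were 6 (3.65%), and 0 to 4 when a time was left out (2.07% to 2.91%). Those higher numbered 1 (3.96%), with 2 under no filter on dim probes (3.2%) and 2 with the mean over kept probes (3.89%). Under cyclic loess 2 were higher (4.55%), and 1 to 4 when a time was left out (3.34% to 6.38%). Members wholly above the controls numbered 2 with the mean over kept probes (8.79% of all genes) in place of 1 (8.4%). Without the 8 h pair 13 members lay wholly below and 2 wholly above (18.9% and 17.9% of all genes), in place of 6 and 1, since 2 arrays a group separate more easily. For the trend over hours the count was 3 without the DMSO array of 8 h (7.95% of all genes) and 0 otherwise. The members' median of -0.04 ran from -0.15 without the 8 h pair to 0.02 under cyclic loess. Of 273 values of the 21 members named by the rule, 259 kept their sign and side of the threshold, 13 changed sign without a call (of NOP56, FBL, IMP4, NOP53, NCL, POLR1B and DKC1) and 1 passed. Some alternatives leave these mean differences as they are, so no sign could change there. These are the fits without the block, with linear hours or with another variance prior, and the changed filters on dim probes. In most alternatives no gene of the series passed, so the side of the threshold could hardly change either. Nearness to background limits DHX33 at 12 h.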
